A study of Sus scrofa with 4 samples.

Results

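The MHC class II genes of the pig, called SLA-D genes, and CD74, the invariant chain that accompanies class II molecules, were examined in heart tissue of minipigs with myocardial infarction (MI). The members were the probe sets of the Affymetrix Porcine Genome Array whose gene symbols all start with SLA-D, together with those of CD74. A probe set is a group of short probes designed against one transcript. This rule gave 11 of the 24123 probe sets of the array, 10 for 7 SLA-D genes and a single one for CD74. SLA-DRB1 was represented by 3 of them, SLA-DMA by 2, and SLA-DRA, SLA-DQA1, SLA-DQB1, SLA-DMB, SLA-DOA and CD74 by 1 each. No probe set of the annotation used here carries the symbol SLA-DOB. A further 3 probe sets carry SLA-DRB1 together with LOC106504372, a neighbouring gene that the reference lists under the synonyms DRB1 and SLA-DRB. They are outside the rule and are given separately. Every member probe set is reported, since sequence differences between alleles can affect a single one.

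Tissue was taken from the border zone and the infarct zone of hearts after myoblast transplantation, and from the same 2 zones of control hearts, with 1 array for each of the 4 conditions. The animals were female Chinese Bama minipigs, 4 months old, in which the left circumflex artery had been ligated for good. In the myoblast group, 50000000 human skeletal myoblasts in DMEM were injected into the heart in 10 injections after MI, and cyclosporin A was given at 5 mg/kg. The labels call the control tissue untreated, while the text of the study sets the myoblast arrays against its control treatment group, which had MI and received DMEM without cells and the same cyclosporin A. Neither the number of minipigs behind an array nor the week of sampling is stated. The values are MAS 5.0 signals, given here in linear units, and the array medians lay between 137 and 142. With 1 array per condition there is no replicate error and no test, so every ratio compares these arrays and not the treatments over minipigs.

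Class II molecules are pairs of an α and a β chain that hold peptides from endocytosed proteins and show them to CD4+ T cells. DR and DQ are the molecules of the cell surface. CD74 fills their groove while they travel to the endosome, lysosomal enzymes cut it down to a short fragment, and DM (DMA with DMB) releases that fragment so that a peptide can bind, while DO (DOA with DOB) restrains DM. Dendritic cells, macrophages and B cells express class II molecules, interferon gamma induces them in many other cells through the coactivator CIITA, and in pigs the endothelium carries them as well. In the reference assembly the SLA-D genes stand on one chromosome in the order DRA, DRB1, DQA1, DQB1, LOC106504372, DOB, DMB, DMA and DOA, with TAP2, PSMB8, TAP1 and PSMB9 of the class I pathway between DOB and DMB. CD74 lies on another chromosome.

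The surface class II genes were strongly hybridized on all 4 arrays and differed little between myoblast and control tissue. SLA-DRA, the α chain of DR, gave 3034 (border zone) and 3448 (infarct zone, as in all pairs of values below) with myoblasts, against 2892 and 2595 in control tissue. Both myoblast values lay above both control values, and myoblast over control was 1.05 (border) and 1.33 (infarct). Its partner SLA-DRB1, on the brightest of the 3 member probe sets (called the main one here), had 2685 and 2727 with myoblasts against 2048 and 2148 in control tissue. The groups did not overlap here either, and the ratios of 1.31 and 1.27 were alike in both zones. SLA-DQA1, the α chain of DQ, had 2358 and 2460.1 with myoblasts against 2383 and 2577 in control tissue. Its groups overlapped, with ratios of 0.989 and 0.955, the lowest among the members of high signal in the mean over both zones. SLA-DQB1, the β chain of DQ, had 2679 and 2660.4 with myoblasts against 2381 and 2486 in control tissue. Its myoblast values were both the higher ones, by ratios of 1.13 and 1.07.

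**Figure D1:**
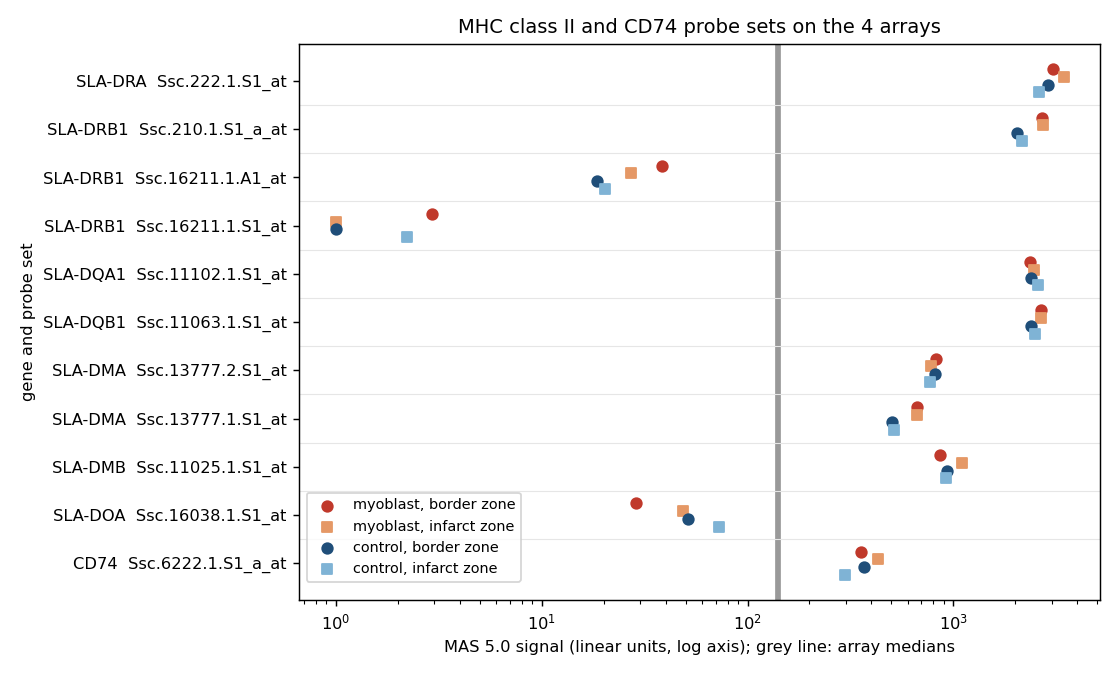
Signals of the 11 class II and CD74 probe sets (y axis, gene and probe set) on the 4 arrays (x axis, MAS 5.0 signal in linear units, log axis). Circles are border zone and squares infarct zone arrays, in red and orange with myoblasts and in dark and light blue for controls, and the grey line spans the array medians. The probe sets of SLA-DRA, SLA-DQA1, SLA-DQB1, SLA-DMA, SLA-DMB and CD74 and the main one of SLA-DRB1 lie right of the medians with their 4 arrays close together, while SLA-DOA and the other SLA-DRB1 probe sets lie left of them and are spread widely.

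The invariant chain and the DM genes kept to a similar range of ratios, and SLA-DOA was dim. CD74 had 356 and 429 with myoblasts against 366 and 298 in control tissue. The groups overlapped, at 0.972 in border and 1.44 in infarct tissue, where control tissue had its lowest and myoblast tissue its highest signal. SLA-DMB, the β chain of DM, had 863 and 1103 with myoblasts against 934 and 918 in control tissue. Here too the infarct zone array with myoblasts was the highest of the 4, the border zone array with myoblasts was the lowest, and the ratios were 0.924 and 1.20. The α chain, SLA-DMA, was read by 2 probe sets that differed from each other. On the brighter one the values were 822 and 777 with myoblasts against 812 and 771 in control tissue, with ratios of 1.01 in each zone. On the dimmer one they were 663 and 669 with myoblasts against 503 and 518 in control tissue. That pair of groups did not overlap, and its ratios of 1.32 and 1.29 were close to those of the main SLA-DRB1 probe set. SLA-DOA, the α chain of the inhibitor DO, had 28.9 and 48.4 with myoblasts against 51.4 and 72.7 in control tissue. It was lower in both zones, at ratios of 0.562 and 0.667, but all 4 signals lay under the array medians.

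None of the 11 probe sets reached 2-fold, the threshold named in the study's methods, when both zones were averaged. Over all probe sets of the array, 7.70% did so upwards and 7.82% downwards. In the border zone alone 2 members reached it upwards and 0 downwards, against 9.95% and 10.4% of all probe sets. In the infarct zone alone 0 did so upwards and 1 downwards, against 10.5% and 9.58%. All of these were the dim SLA-DRB1 probe sets described below. The median log2 ratio of the members was 0.20 in the mean over both zones (0.07 border, 0.26 infarct), and that of all probe sets was 0.01. The 0.20 was the value of the dimmest SLA-DRB1 probe set. Over the 8 members with a mean signal above the median of all probe sets, the median was 0.19. A floor at the array median lowered the median of all 11 members to 0.08.

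Of the 11 members, 8 had a mean signal above the median of all probe sets, which lay at 136 units. Among these 8, ratios ran between 0.924 and 1.32 in border tissue and between 0.955 and 1.44 in infarct tissue. In the mean over both zones 7 of the 8 had a ratio above 1, as did 6301 of all 12061 probe sets with a mean signal above the median. None of the 8 reached 2-fold. Of all probe sets with such a mean signal, 1.72% reached it upwards and 1.33% downwards. Both myoblast arrays lay above both control arrays for 4 of the 8 (SLA-DRA, SLA-DRB1, SLA-DQB1 and one SLA-DMA probe set), and below them for none. This separation was common on these arrays, where it was met by 27.4% of all probe sets of that brightness upwards and by 24.9% downwards. Over all 11 members it held for 5 upwards and 1 downwards, against 22.8% and 22.1% of all probe sets. The medians of the 8 were 0.04 (border) and 0.30 (infarct) on the log2 scale, against 0.02 and 0.01 over all probe sets of that brightness.

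**Figure D2:**
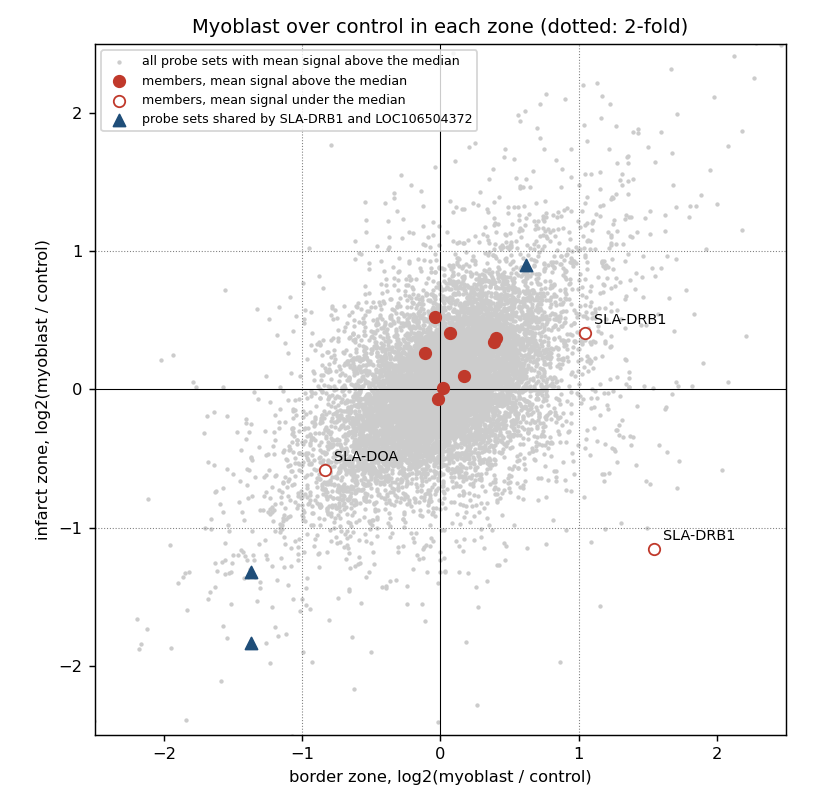
Log2 ratio of myoblast over control in the border zone (x axis) and the infarct zone (y axis), with all probe sets of mean signal above the median in grey, the members as red circles (open where the mean signal is under the median) and the probe sets shared by SLA-DRB1 and LOC106504372 as blue triangles. Dotted lines mark 2-fold and the axes end at -2.5 and 2.5, so that more extreme grey points are not drawn. The 8 filled circles lie inside the 2-fold lines in both zones, while 2 of the 3 triangles lie beyond them at the lower left.

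How small these ratios are can be read against the differences between arrays of one treatment. Over 2048 units of mean signal, a range of 1849 probe sets, where SLA-DRA, SLA-DQA1, SLA-DQB1 and the main SLA-DRB1 probe set lie, 95% differed by less than 1.25-fold between the 2 control zones and by less than 1.61-fold between the 2 zones with myoblasts. Between myoblast and control arrays the corresponding limits were 1.80-fold (border) and 1.79-fold (infarct). The ratios of SLA-DRB1, 1.31 and 1.27, and the infarct zone ratio of SLA-DRA, 1.33, thus exceeded the limit between control zones but not the others. From 512 to 2048 units, the range of SLA-DMA and SLA-DMB, the limits were 1.37-fold between control zones and 1.64-fold between zones with myoblasts, and no member exceeded either. From 128 to 512 units, the range of CD74, the limit between control zones was 1.62-fold. Under 32 units it was 13.2-fold, and from 32 to 128 units 3.20-fold. The zones of one treatment carry no information on differences between minipigs, which these limits do not cover.

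**Figure D3:**
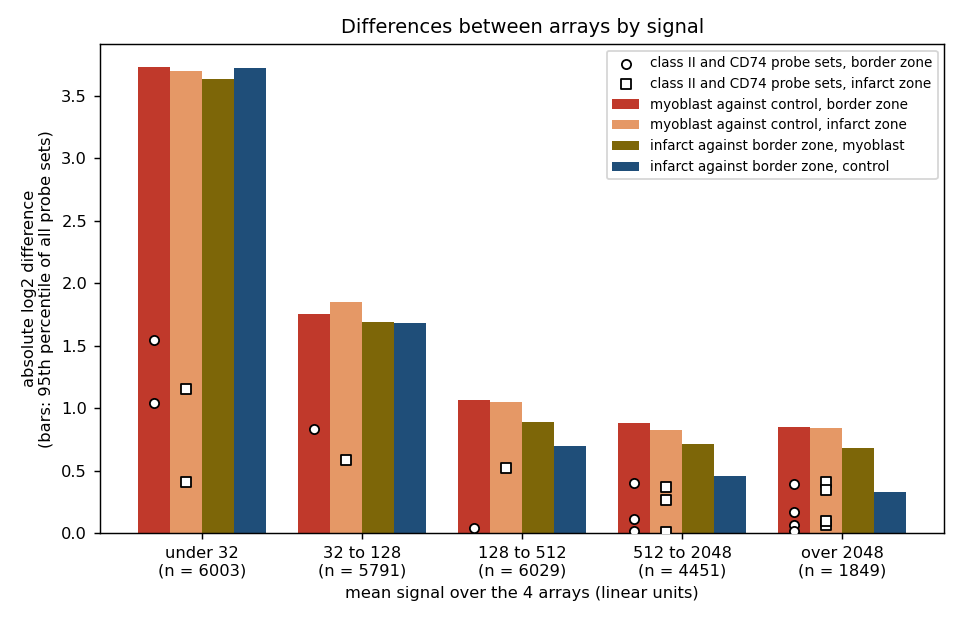
Absolute log2 difference between arrays (y axis) in bins of mean signal over the 4 arrays (x axis, linear units, number of probe sets in brackets). Bars give the 95th percentile of all probe sets for myoblast against control in each zone and for infarct against border zone within each treatment, and open symbols are the class II and CD74 probe sets for myoblast against control. Under 32 units the bars stand above 3.6 and over 2048 units at or under 0.85, and every open symbol lies under the bar of its own comparison.

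SLA-DRB1 was the member whose probe sets disagreed most. Beside the main probe set, the second of its member probe sets gave 38.4 and 27.1 with myoblasts against 18.6 and 20.4 in control tissue. Both myoblast arrays were higher, by 2.06 and 1.33 times, on signals far under the array medians. The third gave 2.93 and 1 with myoblasts against 1 and 2.22 in control tissue, where 1 is the lowest signal the files hold. Its ratios of 2.93 and 0.450 point in opposite directions and stand on signals at or near that lowest value.

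The 3 probe sets shared with LOC106504372 carry the suffix _x_at, which Affymetrix gives to probe sets with some probes that also match other sequences. The brightest of them had 995 and 1290.3 with myoblasts against 648 and 689.8 in control tissue. Its ratios of 1.54 and 1.87 were higher than those of the main probe set. The next in signal went the other way, at 45.5 and 65.9 with myoblasts against 117 and 165 in control tissue. Its signal was 0.388 and 0.399 times that of controls. The dimmest had 4.01 and 9.56 with myoblasts against 10.4 and 34.1 in control tissue, at ratios of 0.387 and 0.280 and very low signal. Of the 6 probe sets that name SLA-DRB1, 2 were thus at least 2-fold lower in both zones and the 2 brightest were higher in both.

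**Figure D4:**
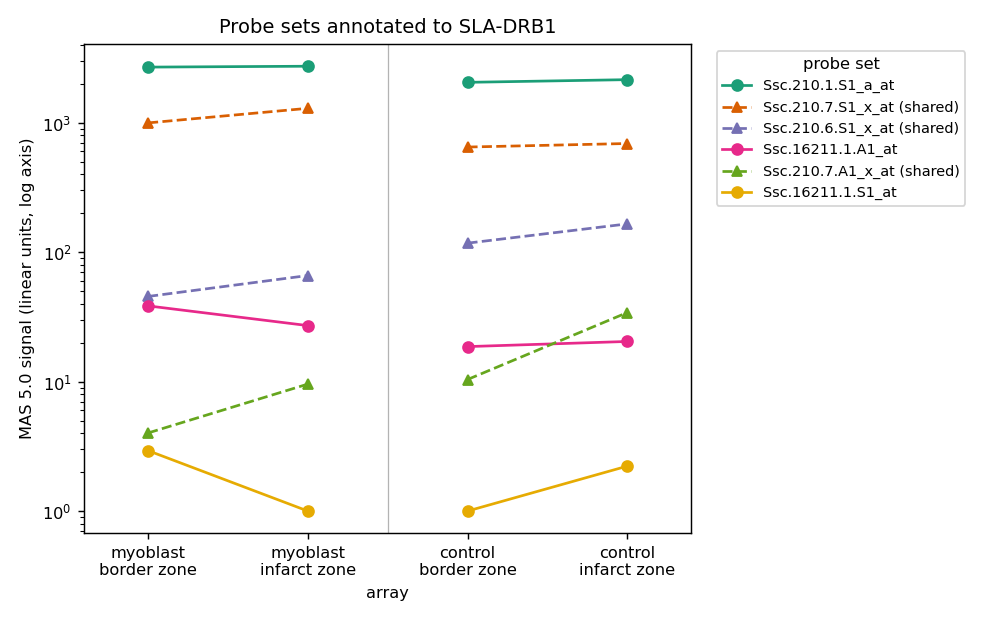
Signals (y axis, MAS 5.0 units, log axis) of the 6 probe sets annotated to SLA-DRB1 on the 4 arrays (x axis, myoblast arrays left and control arrays right). Circles with solid lines are the 3 members, triangles with dashed lines the 3 probe sets shared with LOC106504372, and lines join the 2 zones of one treatment. The 2 brightest probe sets are higher with myoblasts, and the other 2 shared ones are higher in control tissue.

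Between the zones of one heart condition the bright members also differed little. With myoblasts, the infarct zone signal was 0.946 to 1.28 times the border zone signal over the 8 bright members, and above it for 6 of them. In controls it was 0.815 to 1.08 times the border zone signal, and above it for 4. SLA-DRA and CD74 shared a pattern. With myoblasts, infarct over border zone was 1.14 for SLA-DRA and 1.21 for CD74, and in control tissue it was 0.897 and 0.815. SLA-DMB had 1.28 with myoblasts and 0.982 in control tissue. SLA-DQA1 had 1.04 and 1.08, and the main SLA-DRB1 probe set 1.02 and 1.05, so that these chains were nearly level across the zones under both conditions. Whether the zone difference depends on treatment was not tested, as each value rests on 1 array. The counts of members higher in the infarct zone stand without a count over all probe sets.

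Likeness over the 4 arrays was measured as the Euclidean distance between log2 profiles, each centred on its own mean. The member closest to CD74 was SLA-DRA, at a distance of 0.12, followed by SLA-DMB at 0.26. SLA-DMA, SLA-DRB1 and SLA-DQB1 on their closest probe sets lay at 0.33, 0.34 and 0.34 and SLA-DQA1 at 0.43. The comparison covered 5520 probe sets outside the members that had 1 gene symbol and lay above the array medians on all 4 arrays. Of these, 32 were closer to CD74 than SLA-DRA was, so profiles over 4 arrays are not specific. The closest genes outside the members were DNMT1, the maintenance DNA methyltransferase (0.051), the aryl hydrocarbon receptor AHR (0.073), NECAP2 (0.077), the kinase CDK10 (0.078) and NKAP (0.087).

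Among the partner genes of the pathway, the lysosomal enzymes stood higher with myoblasts in both zones with the exception of CTSC. IFI30 (GILT), the reductase that opens disulfide bonds of antigens in the lysosome, had 1147 and 1433 with myoblasts against 487 and 551 in control tissue. Its ratios were 2.36 (border) and 2.60 (infarct), while a dimmer IFI30 probe set had 0.697 and 4.07. Cathepsin S (CTSS), which cuts the invariant chain, had 6796 and 7942 with myoblasts against 4923 and 4947 in control tissue. Its ratios were 1.38 and 1.61, and all 3 CTSS probe sets were higher in both zones. The other cathepsins had ratios of 1.28 and 1.44 (CTSB), 1.44 and 1.55 (CTSD) and 1.35 and 1.54 (CTSH), and legumain (LGMN) had 1.02 and 1.16. Cathepsin Z (CTSZ) had 2267 and 3114 with myoblasts against 1875 and 2073 in control tissue. CTSC, cathepsin C, which activates granule proteases of leukocytes, had 4554.5 and 4661 with myoblasts against 11252 and 12615 in control tissue. All 4 CTSC probe sets were lower in both zones, the brightest at 0.405 and 0.369 times the control signal. Of the 8 lysosomal genes, 7 had both myoblast arrays above both control arrays and 1 had them below, against 27.4% and 24.9% of all probe sets with a mean signal above the median. Their median log2 ratio was 0.48.

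**Figure D5:**
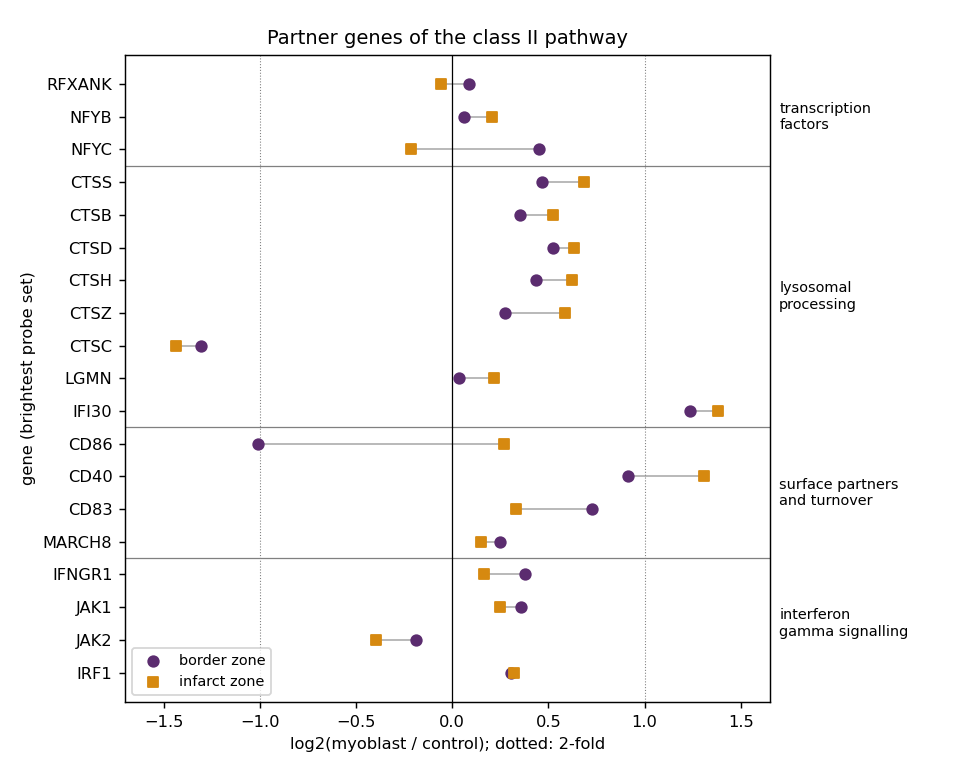
Log2 of myoblast over control (x axis) in the border zone (circles) and the infarct zone (squares) for the 19 partner genes of the class II pathway (y axis, brightest probe set of each) that had, in each zone, at least the brighter treatment over the median of its array. IFI30 and CTSC lie beyond the dotted 2-fold lines in both zones, on opposite sides, and the other lysosomal genes lie right of 0.

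The transcription factors of class II genes had ratios closer to 1, with a median log2 ratio of 0.12. CIITA, which is needed for class II transcription, had 199.6 and 125 with myoblasts against 155 and 66.2 in control tissue. Its ratios of 1.29 and 1.89 rest on overlapping groups with signals around and under the array medians. RFXANK, a subunit of the factor that binds the X box of class II promoters, had ratios of 1.06 and 0.959. The subunits of NF-Y, which binds the Y box, had 1.04 and 1.15 (NFYB) and 1.37 and 0.862 (NFYC). Of the interferon gamma signalling genes, the receptor chain IFNGR1 had 1.30 and 1.12, the kinase JAK1 1.28 and 1.19, the factor IRF1 1.24 and 1.25, and the kinase JAK2 0.879 and 0.759. IFNG itself was dim, with 8.89 and 11.7 with myoblasts against 14.9 and 5.24 in control tissue.

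CD40, the receptor through which T cells stimulate antigen-presenting cells, had 254 and 276 with myoblasts against 135 and 111 in control tissue on its brightest probe set, at ratios of 1.88 and 2.48. The other CD40 probe sets did not reach 2-fold in either zone, with ratios of 1.48 and 1.54 on one and 1.31 and 0.739 on the other. CD83, which keeps class II molecules at the surface, had ratios of 1.66 and 1.26, and MARCH8, a ubiquitin ligase of surface proteins, had 1.19 and 1.11. The co-stimulator CD86 had 0.497 and 1.20. In all, 25 genes of the pathway were measured, of which 4 reached 2-fold upwards with both zones averaged (IFI30, CD40, CD4 and SOCS1) and 2 downwards (CTSC and CD80), and their median log2 ratio was 0.30. The brightest probe sets of CD4, SOCS1 and CD80 were dim, with mean signals under the median, and CREB1, another transcription factor, was dim as well. With a floor at the array median, 1 gene reached it upwards and 1 downwards. The share over all probe sets, 7.70% higher and 7.82% lower, applies here too. Over those with a mean signal above the median it was 1.72% and 1.33%.

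Class I genes, whose products show peptides to CD8+ T cells, were read in the same way. SLA-2, a classical class I gene, had 4578 and 4909 with myoblasts against 2908 and 2876 in control tissue, at ratios of 1.57 and 1.71. SLA-6, a non-classical one, had ratios of 1.81 and 1.35. The probe set annotated to SLA-3 alone had 135 and 194 with myoblasts against 831 and 914 in control tissue, at 0.162 and 0.212 times the control signal. A brighter probe set that names SLA-2 and SLA-3 together went the other way. It had 4217 and 4223 with myoblasts against 3327 and 2710 in control tissue, at ratios of 1.27 and 1.56. B2M, the light chain of class I molecules, had 0.978 and 0.927 on its brightest probe set. Of 12 class I pathway genes, 0 reached 2-fold upwards and 1 downwards with both zones averaged, and the median log2 ratio was 0.10. The shares were 7.70% and 7.82% of all probe sets. They were 1.72% and 1.33% of those with a mean signal above the median, where all 12 genes lay.

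Markers of macrophages and of endothelium, which can carry class II molecules, had higher summed signals with myoblasts, but not every marker was higher. Of 6 macrophage and monocyte markers measured, 3 had ratios above 1 in both zones and none below 1 in both. Their summed signal was 5047 and 6161 with myoblasts against 3876 and 4295 in control tissue. VSIG4 had ratios of 1.85 and 1.48, AIF1 1.62 and 1.38, and MRC1 1.22 and 1.47. The other 3 pointed in opposite directions in the 2 zones, with 0.792 and 1.39 for CD163 (0.218 and 0.316 on a second probe set) and, on dim probe sets, 0.781 and 2.76 for CD14 and 3.25 and 0.668 for ITGAM (CD11b). No marker stood at the lowest signal on all arrays. Of 9 endothelial genes, 7 were above 1 in each zone. The sum of all 9 was 14140.3 and 18505 with myoblasts against 11590.2 and 10214 in control tissue. Much of the difference between these sums came from the adhesion molecule VCAM1, with 5747 and 8269 with myoblasts against 3618 and 2762 in control tissue. The junction protein CDH5 had ratios of 1.37 and 2.04, while PECAM1 had 0.860 and 1.12 and VWF 0.899 and 1.05. SELE, the selectin of activated endothelium, had 200.5 and 176 with myoblasts against 5.09 and 1.89 in control tissue. The 9 T and NK cell markers were all dim, with sums of 371 and 507 with myoblasts against 421 and 409.9 in control tissue. The 3 dendritic cell markers measured were dim or uneven, with sums of 185 and 616 with myoblasts against 166 and 198 in control tissue. Most of the 616 came from CD209, which had 74.6 and 506.8 with myoblasts against 33.0 and 47.5 in control tissue. XCR1 had ratios of 0.657 and 0.806, and CCR7 had 1.78 and 0.200 on very low signal. Of the B cell list only BLNK and CD79B were measured, with sums of 454 and 557 with myoblasts against 406 and 431 in control tissue. Nearly all of this was BLNK, with 451 and 514 with myoblasts against 400 and 425 in control tissue. CD79B was dim, with 3.35 and 42.8 with myoblasts against 5.57 and 6.26 in control tissue. Cardiomyocyte markers, which were bright on every array, had sums of 135247 and 145376 with myoblasts against 152978 and 177314 in control tissue, with 6 of 8 below 1 in both zones. NPPA, the atrial natriuretic peptide, was above 1, at 9119 and 4218 with myoblasts against 2153 and 1246 in control tissue. The part of these cell types in the class II signals was not tested, and in bulk tissue fewer cells of a type and less RNA per cell cannot be told apart. The marker counts by direction can be read against all 24123 probe sets. Of these, 7404 exceeded 1 in each zone and 7165 lay under 1 in each. Among the 12061 with a mean signal above the median, the numbers were 4265 and 3851. Of the controls for RNA quality, EF1A, actin and 28S rRNA did not overlap between the treatments. The ratio of 3' to 5' signal of EF1A was 3.01 and 2.49 with myoblasts against 4.17 and 4.13 in control tissue, and the 28S rRNA control gave 8477 and 10230.4 with myoblasts against 15769.7 and 15983 in control tissue. The 3' to 5' ratio of actin was 24.6 and 19.5 with myoblasts against 24.9 and 36.8 in control tissue. It was nearly level between the treatments in the border zone. That of GAPDH overlapped between the groups, at 1.73 and 1.38 with myoblasts against 1.55 and 1.52 in control tissue. Their part in the class II signals was not tested either.

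Of 9 interferon gamma-induced genes measured, 1 reached 2-fold upwards (SOCS1, which was dim) and 0 downwards with both zones averaged. The shares were 7.70% and 7.82% of all probe sets. They were 1.72% and 1.33% of those with a mean signal above the median, where SOCS1 did not lie. The median log2 ratio of the 9 genes was 0.48. IRF8, a factor of myeloid cells, had 420.3 and 525 with myoblasts against 238 and 284 in control tissue, and WARS, a tRNA synthetase, had ratios of 1.84 and 1.16. These WARS values come from the probe set of highest signal. The next in signal gave 0.988 (border) and 1.06 (infarct), and the dimmest gave 1.08 and 1.07, all near 1. TAP1, the peptide transporter encoded among the SLA-D genes, had 668 and 636 with myoblasts against 507 and 417 in control tissue. Its groups did not overlap and its ratios were 1.32 and 1.52. GBP2 had ratios of 1.04 and 0.908, and CXCL9 had 0.837 and 1.24, both with overlapping groups. GBP1 had 0.929 and 1.43 with overlapping groups on its brightest probe set, and 1.06 and 1.81 on the next in signal.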

How the data were processed

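Total RNA of heart tissue was amplified, labelled with biotin and hybridized by the authors to Affymetrix Porcine Genome Arrays, 1 array per condition. According to the methods, arrays were normalized with the MAS 5.0 algorithm, which corrects for background and sets the mean of every array to one target. The deposited values are log2 signals, made by the authors with MAS 5.0. They were used as deposited, all 4 columns entered, and their linear trimmed means were near 500.1 on every array.

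Gene symbols came from the annotation of the array platform (10099 probe sets with 1 symbol, 198 with several, 13826 with none). The genes of the members were matched to the RefSeq reference by gene ID, 8 of 8 with the same symbol. Its positions served only for the order of genes.

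Within each zone, log2 myoblast minus control was taken per probe set and then averaged over the 2 zones, and 2-fold was the threshold. No test was run, since each condition has 1 array, and the number of arrays and low signal limit the precision. A gene in a list stands for its brightest probe set. The text names every member, the class II pathway genes above the array median, and of each other list at most the 3 genes of largest change among those above the array median, as well as the 5 genes closest to CD74. CIITA, IFNG, CREB1, SOCS1, B2M, CD14, ITGAM, CD163, PECAM1, VWF, CD79B, CD209, XCR1, CCR7, GBP1, GBP2 and CXCL9 were chosen after their values were seen. So were the further probe sets of IFI30, CTSS, CTSC, CD40, WARS, GBP1, SLA-1, SLA-3 and CD163. Members and lists were chosen with earlier results of these data known. Alternatives were other averaging, single zones, normalizations, floors, filters and thresholds. The calculations were tested on simulated data. Python 3.11.15, numpy 2.4.6, pandas 2.3.3 and matplotlib 3.10.9 were used.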

Additional observations from a re-analysis of the deposited data

Results flagged for a closer look

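For 3 members and for 3 of the pathway genes above the array median, myoblast over control pointed in opposite directions in the infarct and the border zone. Each direction rests on 1 array per condition, and the difference between zones was not tested. Over the whole array, 7404 of 24123 probe sets rose with myoblasts in border and infarct tissue alike, and 7165 fell in them alike. The rest changed direction between the zones or stood at 1 in a zone. Members counted 6 and 2 of 11 in these terms, and pathway genes 16 and 3 of 25. Opposite directions were thus not more common among them than over the array. The log2 ratio of CD74 was 0.52 in the infarct zone and -0.04 in the border zone, a difference of 0.56. That of SLA-DMB was 0.26 and -0.11, a difference of 0.38. The dimmest SLA-DRB1 probe set had -1.15 in the infarct zone and 1.55 in the border zone, a difference of -2.70 on signals at or near the lowest value. Among the partner genes the difference was 1.28 for CD86, -0.67 for NFYC and -0.15 for RFXANK. Another 3 pathway genes, on dim probe sets, did the same: the log2 ratio was 0.15 in the infarct zone and -0.92 in the border zone for CREB1, 1.15 and -0.74 for IFNG, and 4.04 and -0.31 for SOCS1. The border zone ratio of CD74 and both ratios of RFXANK were close to 1.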

How the results depend on the processing

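No test, paired or not, was possible, because each condition has 1 array and the labels give no replicate numbers. Differences were taken within each zone throughout, and a model that takes the zones for replicates was not run. The count of members at least 2-fold higher or lower was 0 and 0, and it was 0 under quantile normalization, centring, both floors, the ratio of arithmetic means, the filter on signal, the brightest probe set of each gene and 4-fold. It was 2 higher in the border zone alone and 1 lower in the infarct zone alone. With the probe sets shared with LOC106504372, an alternative chosen after seeing the data, 2 were lower. At 1.5-fold 1 was higher (the second SLA-DRB1 probe set) and 1 lower (SLA-DOA). The members' median log2 ratio, 0.20, ran between 0.07 and 0.26 over all alternatives. The count of pathway genes, 4 higher and 2 lower, was 2 and 3 in the border zone alone, 4 and 1 in the infarct zone alone, 3 and 1 with arithmetic means and 5 and 3 over all probe sets of each gene. With the floor at the 25th percentile it was 2 higher and 1 lower, with the floor at the median 1 and 1, and over genes above the array median 2 and 1. Their median of 0.30 was 0.32 in the infarct zone, 0.28 with quantile normalization and with centring, 0.27 and 0.20 with the floors, and 0.21 over all probe sets of each gene. Without replicates a median or ratio was compared with the SD of its 2 zone values. Low signal limits SLA-DOA and the dim SLA-DRB1 probe sets. With the floor at the 25th percentile SLA-DOA kept a log2 ratio of -0.58, and with the floor at the array median these probe sets have no order.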

Other observations

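Beyond the class II genes, other probe sets of variable SLA genes gave large ratios on single probe sets, chosen here after their values were seen. Both probe sets annotated to SLA-1 and LOC100513601 alone were far lower with myoblasts. One had 22.9 and 2.53 with myoblasts against 285 and 208 in control tissue. The other had 1 and 20.4 with myoblasts against 120.2 and 127 in control tissue. The brighter of the probe sets that name SLA-1 and LOC100513601 together with SLA-2 had 4175 and 4368 with myoblasts against 3500.3 and 3244 in control tissue. The values differ between probe sets of one gene in direction as well as size, as they do for SLA-DRB1, and no explanation was tested. Myoblast and control tissue came from different hearts, and the SLA alleles of the minipigs are not stated. A difference in alleles therefore cannot be told apart from a difference in treatment. CD163, a scavenger receptor of macrophages, also had unlike probe sets. The brighter one had ratios of 0.792 and 1.39, and the other had 251 and 415 with myoblasts against 1149 and 1314 in control tissue.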
